A study of Mus musculus with 11 samples.

Results

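The platelet-derived growth factor (PDGF) family was followed through mouse mitral leaflet RNA: the receptors Pdgfra and Pdgfrb and the ligands Pdgfa, Pdgfb, Pdgfc and Pdgfd. These 6 genes were taken by symbol from the 28591 gene symbols in the count tables of the study, and all 6 were listed and tested in both of its experiments. The family was chosen by name, with its read-count levels in each genotype of these libraries already known, so its fold changes and p-values describe these libraries and are not independent evidence of a difference. No value or threshold decided which of its genes were kept.

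Total RNA of mitral leaflets was sequenced in 11 libraries, in 2 experiments that were tabulated separately. In the first, 3 libraries came from mice carrying NfatC1Cre(+) with Ift88f/f, called the Ift88 knockout here, and 2 from NfatC1Cre(+) mice with Ift88+/+. Every mouse of that experiment therefore carried the Cre, which is driven from Nfatc1, a gene of the endocardium and valve endothelium. In the second, 3 libraries came from Dzip1S14R/+ mice, heterozygous for a serine-to-arginine change, and 3 from Dzip1+/+ mice. Ift88 encodes a part of the transport machinery that builds the primary cilium, and Dzip1 a protein of the ciliary base. Neither age nor sex is stated in the labels, nor whether the libraries of a group came from separate animals. The p-values therefore cover the spread among these libraries alone, which may be technical. Replicate numbers below only name libraries, in the order of their deposition.

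PDGF ligands are secreted dimers that bind receptor tyrosine kinases at the cell surface and bring 2 receptor chains together. PDGF-A and PDGF-C act mainly through the alpha receptor, PDGF-D mainly through the beta receptor, and PDGF-B through both. PDGF-C and PDGF-D are secreted in a latent form that proteases must cut before they can bind. The alpha receptor marks many mesenchymal and fibroblast-like cells, including valve interstitial cells, and has been placed at the primary cilium of fibroblasts, whereas the beta receptor is best known from pericytes and vascular smooth muscle.

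On the mouse genome build GRCm38 (GENCODE M21), Pdgfra lies on chromosome 5 at 75152292 to 75198215 on the forward strand, and its annotated exons cover 10024 bases. Among the ligands, Pdgfa is on chromosome 5 at 138976014 to 138997370 (reverse strand), Pdgfb on chromosome 15 at 79995874 to 80014977 (reverse), Pdgfc on chromosome 3 at 81036416 to 81214040 (forward) and Pdgfd on chromosome 9 at 6168584 to 6378850 (forward). The counts are per gene over its exons, so transcript forms of a gene cannot be separated.

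RefSeq promoter windows of GRCm38.p6, which run from 250 bases before to 50 after an annotated start, were read for 4 of the 6 genes. That of Pdgfrb was left out by choice, and Pdgfb had no entry. The windows of Pdgfc and Pdgfra are shown because these genes had the highest fold change and the widest wild-type spread of the family in the Ift88 experiment, the pattern described further on. Capitals mark the one match to the CArG box, the site bound by serum response factor; both windows are 300 bases, 5′ to 3′ on the forward strand.
Pdgfc promoter, chr3:81036166-81036465: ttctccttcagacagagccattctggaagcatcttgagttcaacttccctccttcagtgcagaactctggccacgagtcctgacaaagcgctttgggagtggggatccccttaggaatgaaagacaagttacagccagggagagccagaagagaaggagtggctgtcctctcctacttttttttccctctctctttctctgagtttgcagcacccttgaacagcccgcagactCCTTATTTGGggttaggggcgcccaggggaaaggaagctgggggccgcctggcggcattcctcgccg
Pdgfra promoter, chr5:75152001-75152300: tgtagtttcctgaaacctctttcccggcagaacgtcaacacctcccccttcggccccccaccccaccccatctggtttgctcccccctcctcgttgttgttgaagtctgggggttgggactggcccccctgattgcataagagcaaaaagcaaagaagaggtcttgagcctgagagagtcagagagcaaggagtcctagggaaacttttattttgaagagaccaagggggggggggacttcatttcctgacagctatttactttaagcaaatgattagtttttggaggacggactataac
The searched motifs were the TATA box TATAAA, the CCAAT box CCAAT, the GC box GGGCGG, the GLI site GACCACCCA, the AP-1 site TGANTCA and the CArG box, on both strands. Of them, the Pdgfc window held only the CArG box, at bases 234 to 243, and the Pdgfra window held none. A CArG box match occurred in 535 of 32851 RefSeq promoter windows of this length (1.63%). Matches to the GC box (35.7% of all windows) were found in both Pdgfa windows, and a TATAAA (13.6% of all windows) in that of Pdgfd. The remaining shares over all windows were 37.4% for CCAAT, 0.253% for the GLI site and 7.81% for the AP-1 site. Guanine and cytosine made up 55.0% of the Pdgfc window and 51.0% of the Pdgfra window, near the median of 52.7% over all windows.

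Library sizes ran from 23.4 M to 53.8 M counts in the Ift88 experiment and from 75.1 M to 93.5 M in the Dzip1 experiment, and the smallest count of any family member in a library was 81. The biological coefficient of variation, the typical library-to-library variation of a gene beyond counting noise, was 87.7% in the first and 7.85% in the second. Ift88 itself, in TMM-scaled CPM (read counts relative to the library's total, corrected for composition), stood at 7.54 and 19.8 in wild type and at 3.00, 3.92 and 0.409 in the knockouts, so all knockouts lay lower (log2 fold change -2.48 ± 1.13, SE; edgeR adjusted p = 0.802). The S14R allele changes a codon, so the Dzip1 level does not check those labels. Wild-type replicate 2 of the Ift88 experiment stood apart: its 12 cardiomyocyte markers summed to 110 CPM, against 69415 in wild-type replicate 1 and 28814 to 39017 in the knockouts. The 8 valve interstitial and fibroblast markers were present in every library, summing to 2750 to 11310 CPM in the Ift88 experiment and 5682 to 7881 CPM in the Dzip1 experiment. That list covers fibroblasts in general, so it does not identify leaflet tissue. In such bulk RNA, fewer cells of a type and less RNA per cell cannot be told apart.

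In Ift88 knockout leaflets, both the beta receptor and one latent ligand stood higher in every library than in either wild-type library, as did 13.5% of all tested genes. Pdgfrb was 3.11 times and Pdgfc 5.97 times its wild-type level, while Pdgfra, Pdgfa, Pdgfb and Pdgfd overlapped between genotypes. None of the 6 passed edgeR's quasi-likelihood test after Benjamini-Hochberg adjustment over all 14244 genes tested, and 0 of those genes did (0%). Unadjusted p lay under 0.05 for 2 of the 6 members, Pdgfrb and Pdgfc, against 6.01% of all genes (856).

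**Figure D1:**
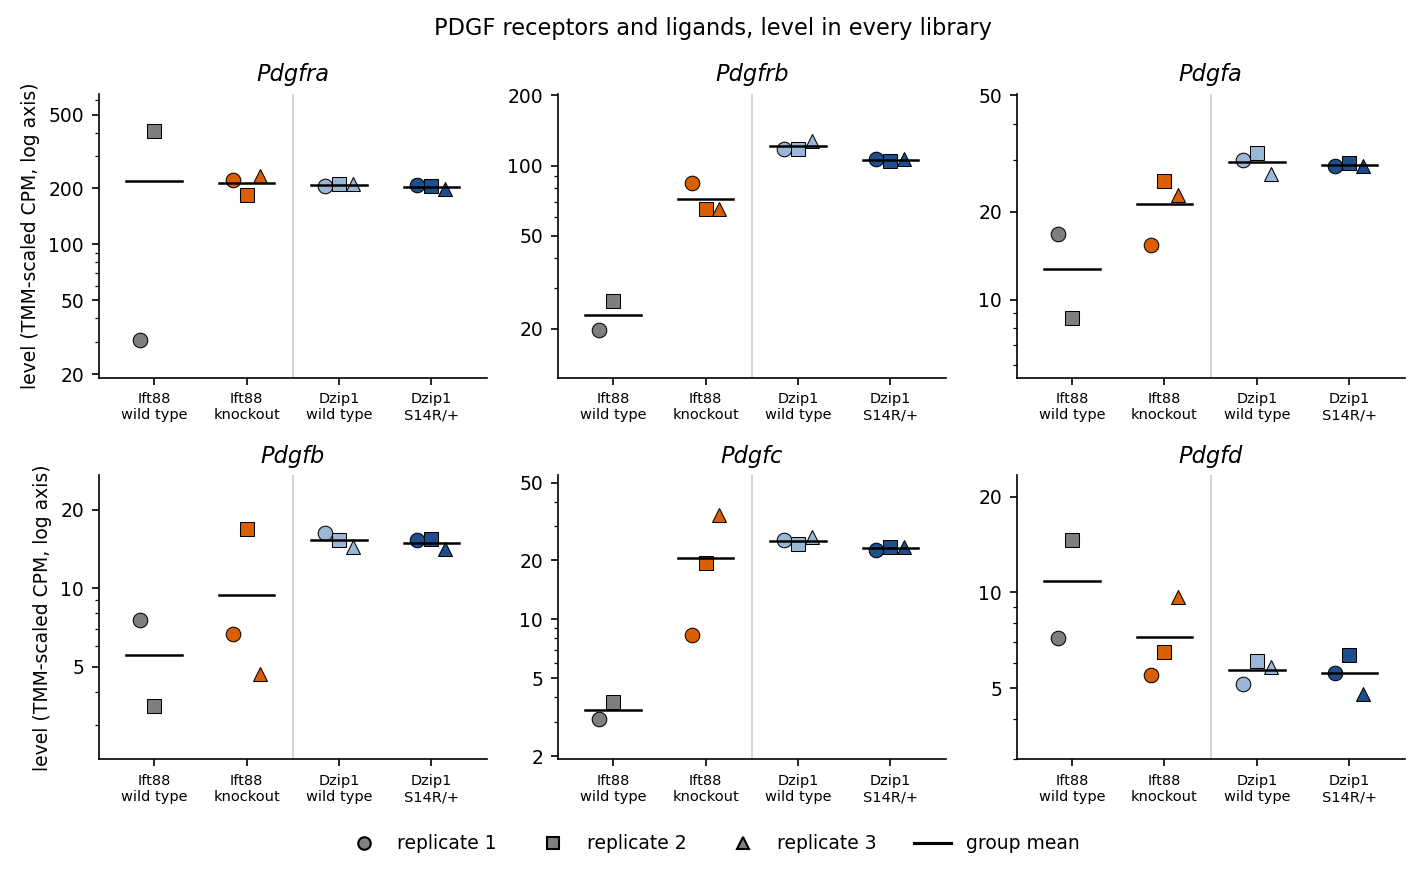
Level of each PDGF gene in every library, as TMM-scaled CPM on a log axis; symbols mark replicates and bars group means. Pdgfrb and Pdgfc separate the Ift88 genotypes with all knockouts higher, and the 2 Ift88 wild-type points of Pdgfra lie at 30.8 and 405.

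Pdgfrb, the beta receptor gene on chromosome 18 at 61045150 to 61085061 (forward strand, 5478 exonic bases), was read at 19.8 and 26.2 CPM in the Ift88 wild types and at 84.3, 65.2 and 65.4 CPM in the knockouts. Every knockout lay well above both wild-type libraries, and the wild-type pair was close together. The means were 23.0 ± 4.58 (SD, n = 2) and 71.6 ± 10.9 CPM (SD, n = 3). On the log2 scale this was 1.64 ± 0.36 (SE), with a 95% interval for the fold of 1.70 to 5.70; edgeR gave an adjusted p of 0.802 and an unadjusted p of 0.00469, at rank 56 of all 14244 genes tested. DESeq2, run as the alternative test, called Pdgfrb (adjusted p = 0.0076) among 376 of 16131 genes (2.33%; 2.22% called as higher), whereas limma-voom did not (adjusted p = 0.703). In the authors' deposited table the log2 fold change of Pdgfrb was 1.43 ± 0.37 with an adjusted p of 0.0151, where 1.43% of the listed genes lay under 0.05.

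Because every knockout lay above both wild types, dropping a library could change the size of the Pdgfrb difference but hardly its sign. The log2 fold change was 1.86 when wild-type replicate 2 was dropped and 1.42 when replicate 1 was. Among the libraries whose titles share the prefix IR28N, which are wild-type replicate 1 and knockout replicates 1 and 2, it was 1.92. With the mean log2 CPM of the cardiomyocyte markers as a covariate, it was 1.84. Wild-type replicate 2 stands far apart in that covariate and is absent from the IR28N libraries. Both fits therefore rest mainly on wild-type replicate 1, like the fit without replicate 2, and are not separate checks. The 10 smooth muscle and pericyte markers, a cell group rich in the beta receptor, summed to 1635 and 753 CPM in the wild types and to 1279, 870 and 1708 CPM in the knockouts, and so overlapped. The fibroblast marker sum did not overlap, at 2750 and 7365 CPM in the wild types against 11159, 11310 and 7740 CPM in the knockouts. Of its 8 genes, 5 were higher in every knockout, where 13.5% of all tested genes were. The melanocyte and Schwann marker sum was also separate, at 71.7 and 55.6 CPM against 111, 80.0 and 85.4 CPM, with 1 of its 5 tested genes higher in every knockout. Endothelial sums overlapped, although 4 of the 8 genes were higher in every knockout. Their part in the Pdgfrb and Pdgfc differences was not tested.

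Pdgfra, the alpha receptor, showed no such separation. The wild types read 30.8 and 405 CPM, and the knockouts 223, 184 and 233 CPM. All 3 knockouts thus lay between the wild-type libraries, which differed 13.2-fold from each other. The group means of 218 ± 265 CPM (SD, n = 2) and 213 ± 25.6 CPM (SD, n = 3) hide this, and the log2 fold change of -0.03 ± 0.92 had a 95% interval of -2.27 to 2.20 (edgeR adjusted p = 0.999). The direction turned with the wild-type library used: dropping wild-type replicate 2 gave a log2 fold change of 2.79, and dropping replicate 1 gave -0.96. The high-Pdgfra wild type was the library with 110 CPM of cardiomyocyte markers; its 8 endothelial markers summed to 1999 CPM, against 220 CPM in the low one, and the part of these marker levels in the Pdgfra level was not tested.

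Among the ligands, Pdgfc, the latent activator of the alpha receptor, had the highest fold change. The wild types had 3.08 and 3.80 CPM, from 81 and 219 counts, and the knockouts 8.28, 19.3 and 34.1 CPM. Each knockout exceeded both wild types, but the knockouts themselves differed 4.12-fold. The means were 3.44 ± 0.505 (SD, n = 2) and 20.6 ± 12.9 CPM (SD, n = 3), a log2 fold change of 2.58 ± 0.74 with a 95% interval for the fold of 1.72 to 20.8. The unadjusted p was 0.0193 and edgeR's adjusted p 0.802; DESeq2 gave an adjusted p of 0.0622, and the authors' deposited table gave a log2 fold change of 1.77 with an adjusted p of 0.0967. Leaving out 1 library at a time kept the log2 fold change of Pdgfc between 2.01 and 2.92.

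Counting groups that do not overlap places these 2 genes against the rest. All knockout libraries exceeded all wild types for 2 of the 6 PDGF genes and for 13.5% of all tested genes, and all lay below for 0 of 6 against 11.1%. Fold changes were positive for 4 of the 6 and for 49.4% of all genes, and the family's median log2 fold change was 0.75 beside -0.01 over all genes. Fold changes in this experiment also moved with transcript length: split into 5 equal bins by exonic length, genes of the shortest bin had a median of -0.43 on the log2 scale and those of the longest 0.59. After correction for that trend, Pdgfrb stood at 1.46 and Pdgfc at 2.43.

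Pdgfa, the main ligand of the alpha receptor, measured 16.9 and 8.68 CPM in the wild types and 15.4, 25.5 and 22.8 CPM in the knockouts. Knockout replicate 1 fell inside the wild-type range, and the log2 fold change was 0.73 ± 0.56 (edgeR adjusted p = 0.891). It was 1.25 and 0.33 when wild-type replicates 1 and 2 were dropped in turn. Pdgfb, which endothelial cells and platelets release, measured 7.57 and 3.54 CPM against 6.70, 16.9 and 4.71 CPM. Only knockout replicate 2 exceeded both wild-type libraries for Pdgfb, and the 95% interval of its log2 fold change of 0.77 ran from -1.43 to 2.97 (edgeR adjusted p = 0.933). That log2 fold change was 0.0417 without knockout replicate 2, and 1.38 and 0.32 when wild-type replicates 1 and 2 were left out in turn. The 6 platelet markers summed to 25.2 and 258 CPM in the wild types and 26.7 to 80.0 CPM in the knockouts; knockout replicate 2, highest in Pdgfb, had the lowest of the knockout sums.

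Pdgfd, the latent ligand of the beta receptor, had the lowest fold change of the family in this experiment. Its levels were 7.19 and 14.6 CPM in the wild types and 5.50, 6.49 and 9.66 CPM in the knockouts. Knockout replicate 3 overlapped the wild types, and the log2 fold change of -0.60 ± 0.75 had an edgeR adjusted p of 0.935. Without wild-type replicate 2, the log2 fold change of Pdgfd was 0.0042.

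In Dzip1 S14R/+ leaflets the beta receptor was lower than in wild type, by a far smaller amount. Pdgfrb stood at 0.875 times and Pdgfc at 0.920 times the wild-type level. Each was lower in 3 of 3 mutant libraries than in every wild-type library, as were 5.01% of all tested genes. None of the 6 members passed edgeR's test over all 16160 genes, of which 0 passed (0%); 2 of the 6 had an unadjusted p under 0.05, against 5.93% of all genes (959). DESeq2 and limma-voom likewise called 0 genes (0%).

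Pdgfrb was at 118, 117 and 127 CPM in the Dzip1 wild types and at 106, 104 and 106 CPM in the S14R/+ libraries. These values rest on 9126 to 9878 counts per library, and the highest mutant lay under the lowest wild type. The means were 120.8 ± 5.56 and 106 ± 1.23 CPM (SD, n = 3 each), a log2 fold change of -0.19 ± 0.039 and a 95% interval for the fold of 0.824 to 0.928. Its unadjusted p of 0.000543 was the smallest of all 16160 genes, and edgeR's adjusted p was still 0.822; DESeq2 gave 0.0990 and limma-voom 0.855 after adjustment. Leaving out 1 library at a time gave -0.21 to -0.16. The cardiomyocyte marker sum was 36100 to 41489 CPM in the wild types and 42661 to 43243 CPM in the mutants, without overlap. An alternative added after the data were seen took the mean log2 CPM of these markers as a covariate. With it, Pdgfrb was at -0.20 ± 0.14 (edgeR adjusted p = 0.999). The marker sum had no overlap between genotypes and the SE rose from 0.039 to 0.14, so this fit can hardly separate the markers from genotype. Smooth muscle and pericyte markers summed to 2804 to 3061 CPM in the wild types and 2931 to 3081 CPM in the mutants, and fibroblast markers to 5934 to 7881 and 5682 to 6147 CPM, so both overlapped.

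Pdgfc measured 25.3, 24.1 and 26.2 CPM in the Dzip1 wild types and 22.7, 23.4 and 23.6 CPM in the S14R/+ libraries. The groups did not overlap, although the nearest libraries, at 24.1 and 23.6 CPM, were close. The log2 fold change was -0.12 ± 0.053 (unadjusted p = 0.0469, edgeR adjusted p = 0.828). The other members overlapped between genotypes. All mutants lay below all wild types for 2 of the 6 members, against 5.01% of all genes, and above for 0 of the 6, against 5.27%.

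The remaining members were bounded closely by these deep libraries. Pdgfra was at 206, 211 and 212 CPM in wild type and 208, 205 and 199 CPM in S14R/+, and the 95% interval of its fold was 0.923 to 1.02 (edgeR adjusted p = 0.873). For Pdgfa, wild-type libraries had 30.0, 31.7 and 27.0 CPM and mutants 28.8, 29.3 and 28.7 CPM, with an interval of 0.888 to 1.08. Pdgfb was at 16.3, 15.3 and 14.4 CPM against 15.2, 15.4 and 14.2 CPM, with an interval of 0.879 to 1.08. The least abundant, Pdgfd, had 5.15, 6.08 and 5.84 CPM against 5.58, 6.34 and 4.77 CPM and the widest interval, 0.811 to 1.18. All 6 fitted fold changes lay below 0, where 49.9% of all genes had a positive one, and the family's median log2 fold change was -0.04; those of Pdgfa, Pdgfb and Pdgfd turned positive when single libraries were left out.

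**Figure D2:**
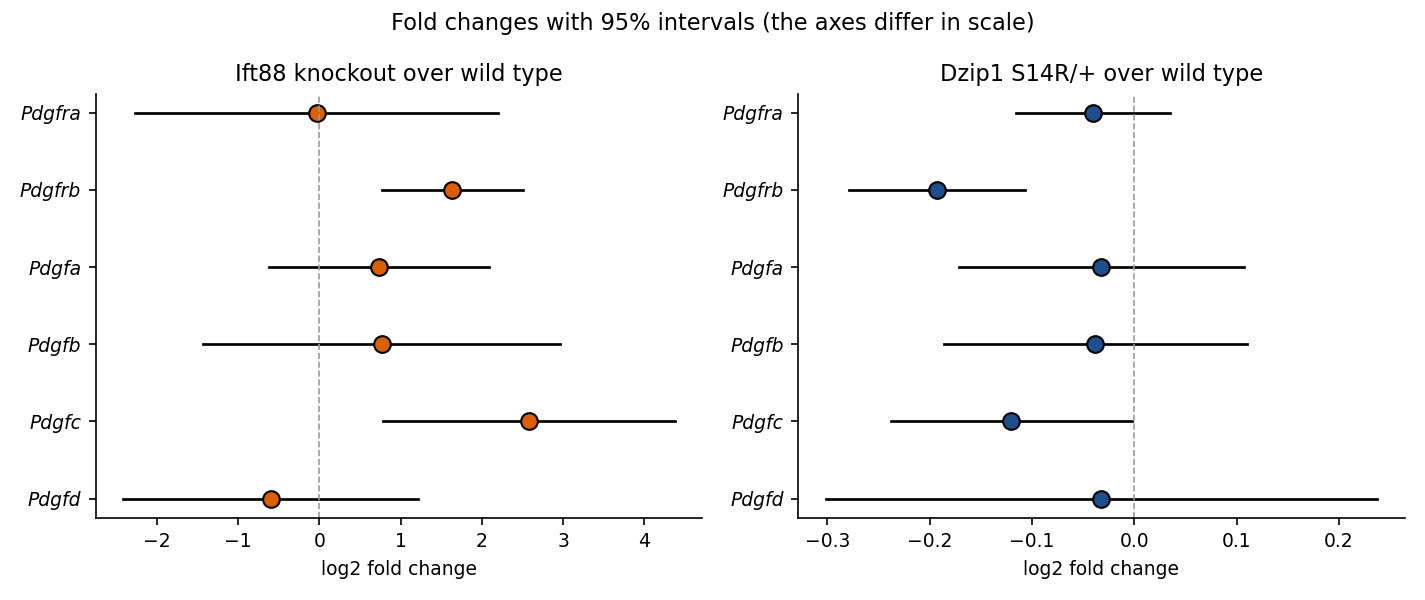
Log2 fold change of each PDGF gene (points) with its 95% interval (lines), Ift88 knockout over wild type at left and Dzip1 S14R/+ over wild type at right; the horizontal axes differ in scale. In both panels the intervals of Pdgfrb and Pdgfc exclude 0, on the high side at left and the low side at right, and none of the 6 genes passed after adjustment over all genes.

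Set side by side, the same 2 genes had the non-overlapping groups in both experiments, Pdgfrb with log2 fold changes of 1.64 and -0.19 and Pdgfc with 2.58 and -0.12. Over all genes, 13.5% lay above and 11.1% below without overlap in the Ift88 experiment, and 5.27% and 5.01% in the Dzip1 experiment. The share of all genes with separate groups in both was not computed, so how common this is cannot be said. The experiments share no library, and the difference between them was not tested, since they were tabulated and scaled separately. The deposited statistics of the Dzip1 experiment gave Pdgfrb a log2 fold change of 0.06 ± 0.049 in the authors' deposited table, where 0 members and 0.0885% of the listed genes had an adjusted p under 0.05. Over all genes those values had the sign of the labelled contrast in only 27.8% of cases, so what they compare is unclear and they were not used further.

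Levels of different genes were compared as CPM per kb of annotated exon, since longer transcripts collect more reads. In the Dzip1 wild types the order was Pdgfrb at 22.1 ± 1.01, Pdgfra at 20.9 ± 0.312, Pdgfa at 9.48 ± 0.763, Pdgfc at 4.96 ± 0.206, Pdgfb at 3.69 ± 0.234 and Pdgfd at 1.80 ± 0.152 CPM per kb (SD, n = 3). No neighbours in this order overlapped over libraries. In S14R/+ the receptors stood in the other order, with Pdgfra at 20.3 ± 0.478 and Pdgfrb at 19.3 ± 0.224 CPM per kb, and the ligands kept their order. The receptor order depends on the length used: with the longest transcript in place of all exons, Pdgfra was at 30.7 and Pdgfrb at 22.3 CPM per kb in the Dzip1 wild types.

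In the Ift88 wild types the order was loose. Pdgfra had 21.8 ± 26.4, Pdgfrb 4.20 ± 0.836, Pdgfa 4.09 ± 1.85 and Pdgfd 3.46 ± 1.66 CPM per kb (SD, n = 2), and each neighbour among these 4 overlapped the next. Pdgfb at 1.33 ± 0.686 and Pdgfc at 0.676 ± 0.0991 CPM per kb lay below them, Pdgfc lowest in both libraries. In the knockouts Pdgfra at 21.3 ± 2.56, Pdgfrb at 13.1 ± 2.00 and Pdgfa at 6.81 ± 1.66 CPM per kb (SD, n = 3) were apart from one another. Next in order came Pdgfc at 4.04 ± 2.54 CPM per kb, overlapping both Pdgfa and Pdgfd.

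**Figure D3:**
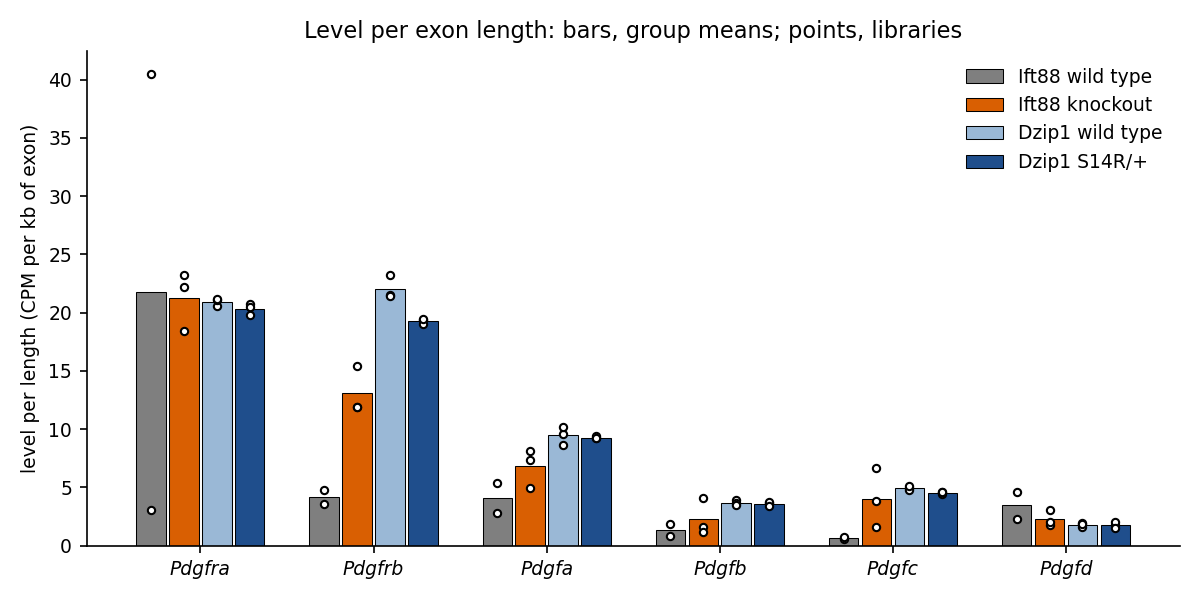
Level per exon length (CPM per kb) of the 6 PDGF genes in the 4 groups; bars are group means from 0 and points are libraries. Receptors exceed ligands in the Dzip1 groups and the Ift88 knockouts, and the Ift88 wild-type bar of Pdgfra averages a very low and a very high library.

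The balance of the receptors was read as the share of Pdgfra in the summed level per kb of both. In the Dzip1 experiment it was 48.9%, 49.5% and 47.6% in the wild types and 51.7%, 51.8% and 50.5% in S14R/+, so all mutants lay higher. The means of 48.7% ± 0.966 and 51.3% ± 0.737 (SD, n = 3 each) differed by 2.63 percentage points, with an exact two-sided permutation p of 0.1, the smallest that 3 against 3 libraries allow. In the Ift88 experiment the share was 46.0% and 89.4% in the wild types, with the knockouts at 59.1%, 60.7% and 66.1% between them. The difference of -5.73 points had an exact two-sided permutation p of 0.8, where 0.2 is the smallest possible, and was 16.0 points without wild-type replicate 2.

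Ligand composition was even across the Dzip1 libraries. Pdgfa made up 47.5% ± 2.14 of the summed ligand level per kb in wild type and 48.3% ± 0.744 in S14R/+ (SD, n = 3 each), and Pdgfc 24.9% ± 1.93 and 23.8% ± 0.786. Pdgfb gave 18.5% ± 0.855 and 18.7% ± 0.528, and Pdgfd 9.06% ± 0.834 and 9.18% ± 1.07. No ligand's share separated the genotypes there.

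In the Ift88 experiment 2 shares did not overlap. Pdgfc supplied 5.99% and 8.28% of the ligand level in the wild types and 16.4%, 21.0% and 36.8% in the knockouts. Pdgfd supplied 22.6% and 51.4% in the wild types and 17.5%, 11.4% and 16.8% in the knockouts. Both latent ligands thus had separate groups in opposite directions, although the level of Pdgfd itself overlapped; shares of one sum move against each other by construction. The summed receptors were 0.660 and 5.02 times the summed ligands in the Ift88 wild types and 3.79, 1.67 and 1.93 times in the knockouts. That ratio was 2.01 to 2.32 in all 6 Dzip1 libraries.

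**Figure D4:**
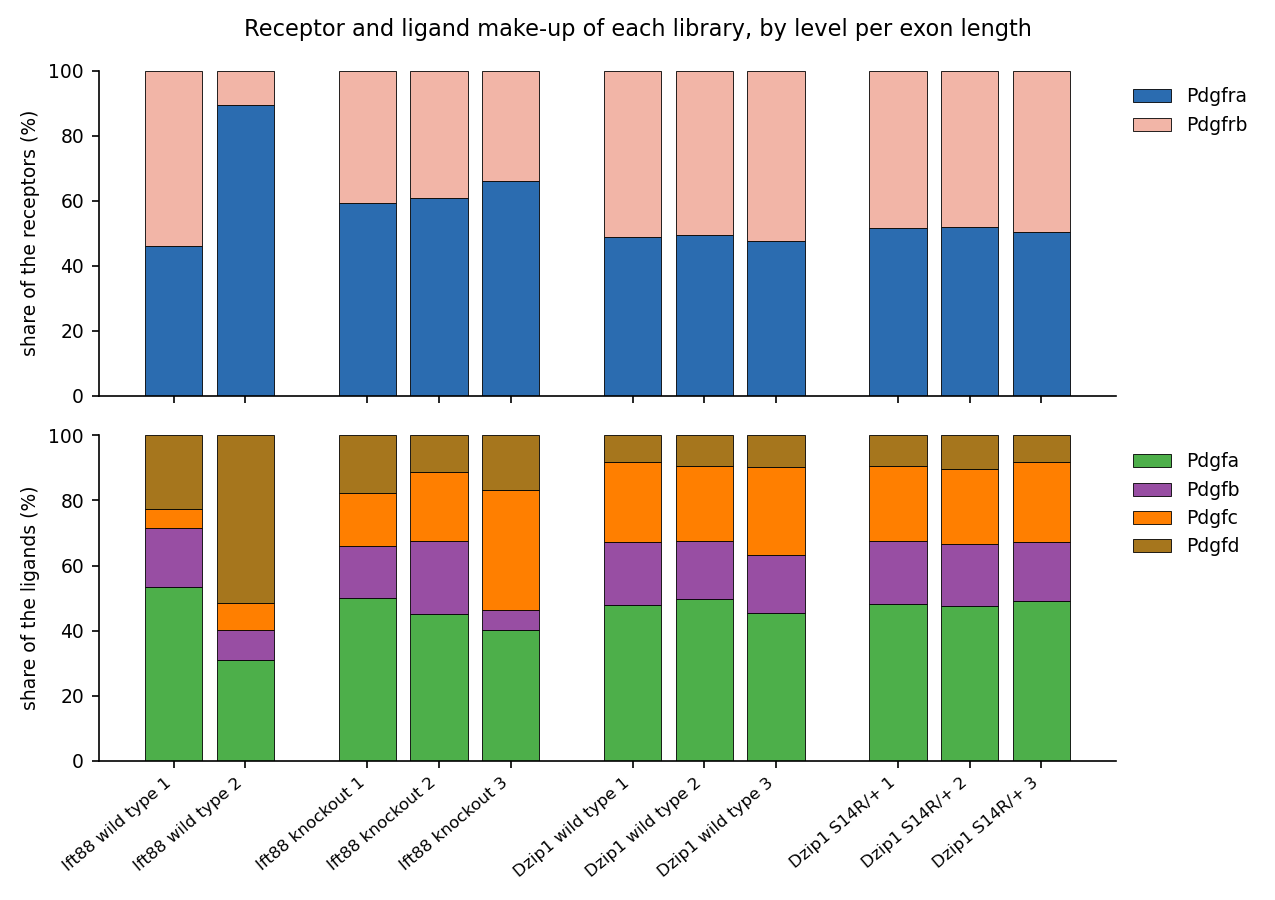
Share of each receptor (top) and each ligand (bottom) in the summed level per exon length, in percent, for each of the 11 libraries. Pdgfc takes 16.4% to 36.8% of the ligands in the Ift88 knockouts and under 9% in the wild types, and the Dzip1 libraries look alike.

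Genes around the receptors were read from 6 lists: ligand processing and binding, the relay of receptor signals, receptor dampers, early genes that PDGF can induce, related class III receptors with their ligands, and the vascular endothelial growth factor (VEGF) family. Of the 79 listed genes, 77 were tested in the Ift88 experiment, and 0 passed edgeR's adjusted test (0% of all genes); 6 had an unadjusted p under 0.05, against 6.01% of all genes, and DESeq2 and limma-voom called 0, against 2.33% and 0%. All knockouts exceeded all wild types for 11 of the 77 and lay below for 3, against 13.5% and 11.1% of all genes. The median log2 fold change over the lists was 0.24, beside -0.01 over all genes.

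Among the genes that process or bind the ligands, 9 were tested, 6 had a positive fold change (49.4% of all genes) and 4 had all knockouts above (13.5% of all genes). Furin, a protease that cleaves PDGF precursors, averaged 10.4 ± 4.51 CPM in wild type (SD, n = 2) and 43.2 ± 28.4 CPM in the knockouts (SD, n = 3), a log2 fold change of 2.05 ± 0.69. Lrp1, an endocytic receptor that associates with the beta receptor, had 6.66 ± 5.81 and 33.8 ± 16.6 CPM, and Nrp1, a co-receptor, 117 ± 15.04 and 214 ± 28.4 CPM. St14, a protease, had 0 counts in both wild types and in knockout replicate 3. The edgeR adjusted p was 0.802 for each of these.

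In the signal relay, 20 of 33 tested genes had positive fold changes, against 49.4% of all genes, with a median log2 fold change of 0.11. All knockouts lay above both wild types for 5 of the 33 and below for 2, against 13.5% and 11.1% of all genes. Ptpn11, the phosphatase Shp2 that docks on both receptors, averaged 27.3 ± 8.49 CPM in wild type and 76.2 ± 29.5 CPM in the knockouts, with a log2 fold change of 1.48 ± 0.46. The phosphoinositide 3-kinase genes Pik3ca and Pik3r1 had log2 fold changes of 2.01 and 1.59. All knockouts exceeded both wild types for each of these, with an edgeR adjusted p of 0.802.

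Of 10 damper genes, 6 had a positive fold change, against 49.4% of all genes. All knockouts lay above for 2 of the 10 and below for 1, against 13.5% and 11.1% of all genes. Cbl, a ubiquitin ligase that sends receptors for degradation, had 45 and 0 counts in the wild types and 396, 416 and 546 in the knockouts. It was the single listed gene called in any setting, without wild-type replicate 1, where the remaining wild type holds its 0 (edgeR adjusted p = 0.0379). The phosphatase gene Ptpn2 was lower in every knockout, with a log2 fold change of -0.52 ± 0.40 (edgeR adjusted p = 0.886).

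The early genes had 8 of 10 positive fold changes, against 49.4% of all genes. Separate groups were seen for 0 of the 10, against 13.5% above and 11.1% below over all genes. Srf, whose protein binds CArG boxes, measured 3.61 and 17.1 CPM in the wild types and 9.41 to 32.6 CPM in the knockouts, and so overlapped. The CArG box in the Pdgfc window above is a sequence match only. Binding to it was not measured, and a part of Srf in the Pdgfc level was not tested. The class III relatives had a median log2 fold change of -0.53 over 7 genes, with Csf1r at 0.99 ± 0.59 and Kit at 0.69 ± 0.81. The VEGF family had 0.31 over 8 genes, with Kdr, also among the endothelial markers, at 0.86 ± 0.51. No gene of these last groups separated the genotypes.

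In the Dzip1 experiment 75 of the 79 genes were tested; 0 passed edgeR's adjusted test (0% of all genes), 8 had an unadjusted p under 0.05 against 5.93% of all genes, and 27 had a positive fold change against 49.9% of all genes. All mutants were above for 2 genes and below for 3, against 5.27% and 5.01% of all genes. Csf1r, the receptor of macrophage colony-stimulating factor and a class III relative of Pdgfrb, averaged 37.1 ± 3.36 CPM in wild type and 29.4 ± 2.17 CPM in S14R/+ (SD, n = 3 each). Every mutant was lower, with a log2 fold change of -0.34 ± 0.075 (edgeR adjusted p = 0.822, DESeq2 0.0824). The 7 macrophage markers listed in that table, which include Csf1r, summed to 88.7 to 111 CPM in wild type and 78.2 to 84.5 CPM in the mutants, and 2 of the 7 were lower in every mutant; their part in the Csf1r difference was not tested.

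Relay genes split evenly there, 16 of 32 being positive, against 49.9% of all genes. Shc1, an adaptor of activated receptors, was lower in every mutant, with a log2 fold change of -0.07 ± 0.039. Stat3 overlapped at -0.19 ± 0.078. The 9 tested early genes all had negative fold changes, with Junb at -0.41 ± 0.16, and none separated the genotypes. Vegfb was the one VEGF family gene higher in every mutant, at 122 ± 1.56 against 109 ± 7.12 CPM. Lrp1 of the processing list had a log2 fold change of -0.12 ± 0.052 with overlapping groups, and Socs3 of the dampers -0.68 ± 0.28, likewise overlapping.

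Likeness of pattern was measured as the root mean square difference between log2(CPM + 1) values, each taken as a deviation from its experiment's mean, over all 11 libraries and 11110 other genes. Pdgfra was most like Fam129b (0.0812), Gata2 (0.12) and Mbd4 (0.13), and Pdgfrb most like Pfas (0.11), Dusp16 (0.13) and Pde3a (0.14). Closest to Pdgfa were Polr3f (0.0519), Lrrc58 (0.0547) and Sap30l (0.0793), and to Pdgfb Ppp3cb (0.0974), Irf2bp2 (0.10) and Ttc7b (0.10). For Pdgfc they were Arhgap32 (0.12), Furin (0.17) and Clic6 (0.18). Furin was also on the processing list. Both it and Pdgfc were higher in every Ift88 knockout, which the choice of Furin by likeness to Pdgfc in these libraries makes likely. Pdgfd was most like Arfgap3 (0.10), Scamp5 (0.10) and Atp2c1 (0.11). These genes were picked as the nearest of 11110 over only 11 libraries, which did not weigh equally. Deviations were not scaled to the spread of each experiment, so the widely spread Ift88 libraries counted for more. Pdgfra, for example, differed 13.2-fold between the Ift88 wild types. Within the Dzip1 wild types and the S14R/+ libraries it differed at most 1.03-fold and 1.05-fold. Likeness to Pdgfra therefore reflects mainly the Ift88 libraries. Likeness within each experiment alone was not computed. No family member was among the 3 genes most like another. The nearest was Pdgfa, at rank 425 in likeness to Pdgfb, and Pdgfrb was at rank 2918 in likeness to Pdgfra.

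**Figure D5:**
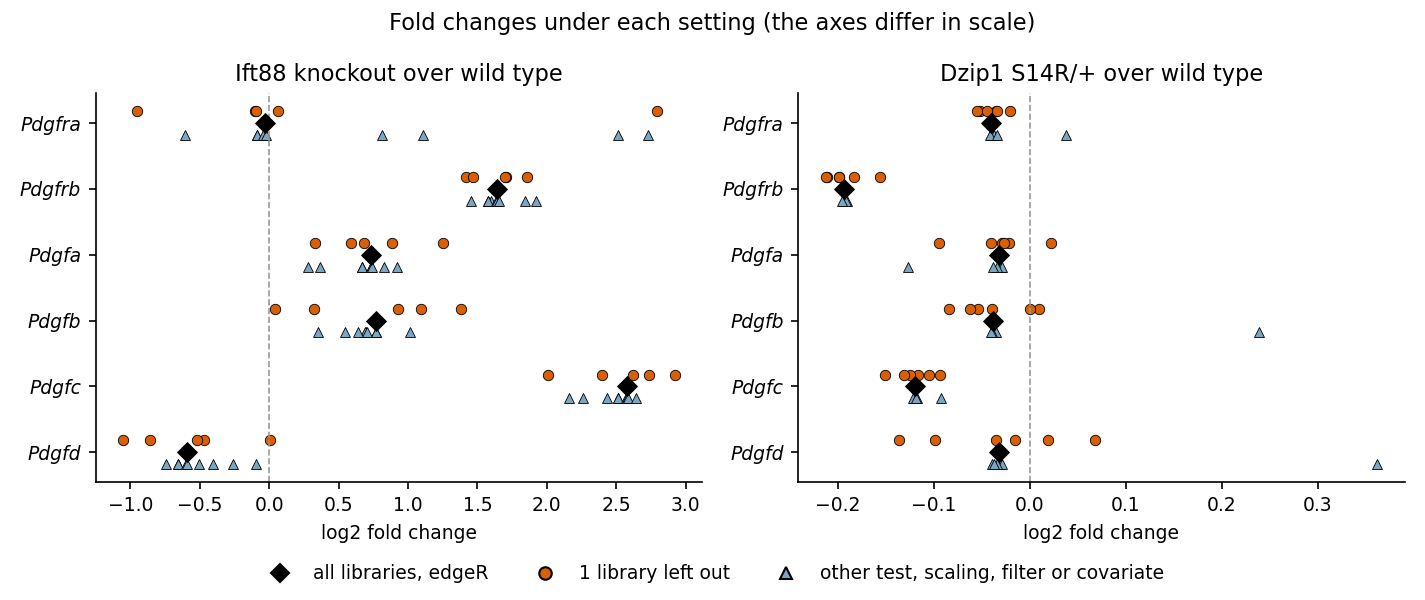
Log2 fold change of each PDGF gene under every setting tried: diamonds, edgeR on all libraries; circles, 1 library left out; triangles, another test, scaling, filter or covariate; the horizontal axes differ in scale. Pdgfrb and Pdgfc, whose groups do not overlap, stay on one side of 0 in both experiments, while Ift88 Pdgfra ranges from -0.96 to 2.79.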

How the data were processed

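RNA-seq read counts of genes, from mitral leaflets in 2 experiments, were analysed as deposited. Per the labels' protocols, RNeasy-purified, DNase-treated total RNA went into SMART-Seq v4 libraries. The submitters' processing notes name FastQC 0.11.5, cutadapt 1.11, HTSeq, DESeq and DESeq2 and the build mm10/GRCm38; the aligner, annotation and strand setting were not given in the sources used here, so overlapping genes cannot be separated. The authors deposited whole-number counts per gene beside log2 fold changes and adjusted p-values of their own, per the file headers. Kits of this type amplify full-length cDNA from little RNA.

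Each table was fitted alone with edgeR 4.0.16 (R 4.3.3): TMM scaling, filterByExpr, quasi-likelihood test, Benjamini-Hochberg adjustment over all tested genes, threshold 0.05. This left 14244 genes (Ift88) and 16160 (Dzip1); all 6 PDGF genes passed the filter in both. DESeq2 1.42.0, limma-voom 3.58.1, RLE scaling, other filters, a transcript length correction, title prefix and cardiomyocyte covariates and leaving out each library were alternatives; intervals are at 95%. Exonic lengths came from GENCODE M21 on GRCm38. The code was tested on simulated counts.

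Members and lists were chosen with earlier results of these data known. Named genes are the 6 members, Ift88 and Dzip1, up to 4 tested genes of smallest p per list and experiment, and the 3 genes most alike in pattern to each member (mean count at least 50 in both experiments; predicted genes left out). Not every gene so chosen is described.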

Additional observations from a re-analysis of the deposited data

How the results depend on the processing

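Pdgfrb and Pdgfc kept their direction under all 14 alternatives of the Ift88 experiment (log2 fold changes 1.42 to 1.92 and 2.01 to 2.92) and all 13 of the Dzip1 experiment (-0.21 to -0.16 and -0.15 to -0.09). Their groups do not overlap in either experiment, so leaving out a library could hardly have turned that direction. Nor are the alternatives independent of one another. In the Ift88 experiment the IR28N and cardiomyocyte covariate fits rest mainly on wild-type replicate 1, as does the fit without wild-type replicate 2. The cardiomyocyte covariate of the Dzip1 experiment follows genotype and can hardly be separated from it. In the Ift88 experiment DESeq2 called 376 genes and 1 member, Pdgfrb, at a log2 fold change of 1.57; edgeR's adjusted p for Pdgfrb ranged from 0.163 to 1.00 over the alternatives fitted with it. Leaving out 1 library gave 0 to 187 called genes, 0 members and 0 to 1 listed pathway genes there (187 genes, and Cbl, without wild-type replicate 1), and 0 to 10 called genes in the Dzip1 experiment: 2 genes without wild-type replicate 1, 10 genes when wild-type replicate 2 was left out and 1 gene without S14R/+ replicate 2. Ift88 Pdgfra turned positive with limma-voom (0.81), title prefix as a covariate (1.107), the cardiomyocyte covariate (2.51) and the IR28N libraries alone (2.73), and ran from -0.96 to 2.79 with 1 library left out (2.79 without wild-type replicate 2, 0.07 without knockout replicate 2). Ift88 Pdgfd ran from -1.05 to 0.0042, the latter without wild-type replicate 2, and the Ift88 difference in the Pdgfra share from -27.5 to 16.0 points, that in the Dzip1 experiment from 2.11 to 3.06. In the Dzip1 experiment the cardiomyocyte covariate, chosen after the data were seen, turned Pdgfra to 0.0372, Pdgfb to 0.24 and Pdgfd to 0.36; with 1 library left out Pdgfa ran from -0.0948 to 0.0217 (the latter without wild-type replicate 2), Pdgfb from -0.0839 to 0.0094 (0.0094 without wild-type replicate 1, 0.00019 without S14R/+ replicate 3) and Pdgfd from -0.136 to 0.0676 (0.0186 without wild-type replicate 2, 0.0676 without S14R/+ replicate 3). The cause was not tested. Of the 20 neighbour pairs in the orders of level per kb, 17 kept their order with the longest transcript and 18 to 20 with 1 library left out. Where 1 wild-type library remained, it was assumed to vary like the other group. No paired analysis was possible because the labels give no replicate numbers shared between groups. The Ift88 experiment, with 2 wild-type libraries whose cardiomyocyte marker sums differ widely, limits every value drawn from it. Its libraries also held counts for fewer genes, 13379 to 15212 against 18996 to 19240 in the Dzip1 libraries. The part of this in the fold changes was not tested.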

Other observations

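Csf1r, the other class III receptor gene that was lower in every Dzip1 S14R/+ library, is the next tested gene along chromosome 18 from Pdgfrb, 15.5 kb away on GRCm38. Within 250 kb of Pdgfrb 8 other genes were tested in that experiment, a window chosen after the values were seen. Of these, 5 had a negative fold change and 3 were lower in every mutant library, where 5.01% of all tested genes were; the 3 include Csf1r, which prompted the window. Macrophage markers, Csf1r among them, summed to 88.7 to 111 CPM in wild type and 78.2 to 84.5 CPM in the mutants, without overlap, and their part in these values was not tested. Besides Csf1r these were Arsi, an arylsulfatase family gene, with a log2 fold change of -0.59 ± 0.24, and Cd74, the invariant chain of antigen presentation, with -0.33 ± 0.24. Camk2a and Tcof1, which lie on the same side of Pdgfrb as Arsi and Cd74, had overlapping groups at 0.09 ± 0.043 and 0.0079 ± 0.034. None of these genes passed edgeR's adjusted test.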
